A study of Homo sapiens with 32 samples.

Results

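The genes of the mitochondrial ribosomal proteins were followed in RNA sequencing of 2 human germ cell cancer cell lines. They were taken as every gene of the deposited table whose symbol was MRPL or MRPS followed by a number and, in some, a letter A to C, with no pseudogene in the name. The rule found 78 of 61541 genes, 49 of the large subunit (MRPL) and 29 of the small subunit (MRPS), and no expression value entered the choice. The subunits are split by symbol alone throughout, and a symbol need not match the place of the protein. For example, the MRPS18A protein sits in the large subunit, and the MRPS36 protein belongs to another complex. Both genes count as small subunit genes in every count, sum and ratio. NTera2 is a line derived from an embryonal carcinoma and was kept in DMEM, and TCam-2 is a line derived from a seminoma and was kept in RPMI medium, both with serum. Each line was treated for 48 h with RANKL, OPG, denosumab or the vehicle D-PBS, which gave 8 groups. The 4 libraries of a group came from independent experiments, and n = 4 unless another number is given. RANKL activates the receptor RANK, OPG is a natural decoy receptor for RANKL, and denosumab is an antibody against RANKL. Per the labels, RANKL and OPG were given at 1 µg/ml. The protocol names RANKL again where denosumab would stand and gives denosumab no dose, so the identity of those libraries rests on their labels. Each line is a single line at its own passages (27 to 31 for NTera2 and 118 to 122 for TCam-2) and in its own medium, so line, medium and passage cannot be told apart.

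Mitochondria hold their own ribosome, which translates the few mRNAs encoded in mitochondrial DNA, all of them for subunits of the respiratory chain and ATP synthase. Its ribosomal RNAs are made in the mitochondrion, whereas all of its proteins are encoded in the nucleus, translated in the cytosol and imported. The small subunit reads the mRNA, and the large subunit joins the amino acids and feeds the new chain to the inner membrane.

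NTera2 libraries held 11385500 to 30499538 counts and TCam-2 libraries 10585247 to 20257935, of which 53000 to 162753 fell on the 78 genes. RNA integrity numbers were 8.3 or higher where given, except in TCam-2 RANKL replicates 2 (6.1) and 4 (3.7), and NTera2 vehicle replicate 1 had none. The lines matched their labels: the summed level of 6 embryonal carcinoma markers (SOX2, DNMT3B, TNFRSF8, GDF3, LEFTY2 and LIN28A) was 3436 to 3729 counts per 1000000 (CPM) in the vehicle libraries of NTera2 against 509.2 to 579.2 in those of TCam-2, and that of 6 seminoma markers (SOX17, TFAP2C, PRDM1, NANOS3, TCL1A and KIT) 42.7 to 47.7 against 1696 to 1873 CPM. These sums do not show how each single marker differed. Summed immune markers did not pass 4.10 CPM in any library, with CD3E and PTPRC at 0 under vehicle in both lines. Under vehicle, 6 fibroblast markers summed to 68.1 to 78.3 CPM in NTera2 against 14.04 to 16.7 CPM in TCam-2, and 4 endothelial markers to 27.3 to 31.0 against 15.9 to 17.3 CPM, and their part in the results was not tested.

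RefSeq promoters (GRCh38.p14, 250 bases before to 50 after the gene start) were given for 69 of the 78 genes. The exact letters CCGGAAG on either strand, the core site of ETS factors such as GABPA, stood in 42.0% of them (29 genes), against 10.7% of all 27305 promoters and 18.3% of the 11587 promoters of genes tested between the lines. The letters AAGATGGC, the core site of YY1, stood in 29.0% (20 genes), against 3.03% and 5.14%. The letters GCGCATGCG, the core site of NRF1, stood in 4.35% (3 genes), against 2.1% and 3.5%. Where CCGGAAG runs on into AAGATGGC, both share the letters AAG. A match describes the sequence without showing that a factor binds. By subunit, CCGGAAG was found in 40.5% of 42 large and 44.4% of 27 small subunit promoters, and AAGATGGC in 28.6% and 29.6%. The 100 bases before the start are shown for 9 of the genes that hold CCGGAAG there and that differed between the lines. MRPL20, MRPL27, MRPL43, MRPL58, MRPS18A and MRPS23 were higher in TCam-2, and MRPL3, MRPL47 and MRPS34 lower. The shared letters can thus be seen on both sides of the comparison. The bases are written 5′ to 3′ on the strand of the gene. Capitals mark CCGGAAG or its reverse complement CTTCCGG and, in MRPL47, the reverse complement of AAGATGGC.
MRPL20 chr1:1407294-1407393 (-): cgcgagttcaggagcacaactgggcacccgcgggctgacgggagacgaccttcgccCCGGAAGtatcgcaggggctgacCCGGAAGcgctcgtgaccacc
MRPL27 chr17:50373185-50373284 (-): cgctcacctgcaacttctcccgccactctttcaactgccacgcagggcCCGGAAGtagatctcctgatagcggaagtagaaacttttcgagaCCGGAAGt
MRPL43 chr10:100987498-100987597 (-): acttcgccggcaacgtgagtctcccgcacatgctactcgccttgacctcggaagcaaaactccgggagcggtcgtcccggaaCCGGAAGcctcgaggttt
MRPL58 chr17:75012570-75012669 (+): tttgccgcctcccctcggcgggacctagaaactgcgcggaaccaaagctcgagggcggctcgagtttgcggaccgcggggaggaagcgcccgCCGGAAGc
MRPS18A chr6:43687792-43687891 (-): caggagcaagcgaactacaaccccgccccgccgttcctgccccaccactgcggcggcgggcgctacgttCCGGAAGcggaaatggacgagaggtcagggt
MRPS23 chr17:57850045-57850144 (-): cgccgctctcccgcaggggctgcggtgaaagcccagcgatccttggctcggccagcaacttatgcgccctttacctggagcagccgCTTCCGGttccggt
MRPL3 chr3:131502972-131503071 (-): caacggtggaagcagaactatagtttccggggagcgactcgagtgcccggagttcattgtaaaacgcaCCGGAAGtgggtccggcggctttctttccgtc
MRPL47 chr3:179604639-179604738 (-): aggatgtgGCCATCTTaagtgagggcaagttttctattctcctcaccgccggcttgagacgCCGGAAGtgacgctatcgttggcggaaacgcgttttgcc
MRPS34 chr16:1773135-1773234 (-): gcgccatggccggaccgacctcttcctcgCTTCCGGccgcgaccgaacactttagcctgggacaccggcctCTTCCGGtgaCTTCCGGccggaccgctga
The matches stood at different distances from the start. In the whole promoter CCGGAAG was found 3 times in MRPS34, 2 times in MRPL20, MRPL27 and MRPL58 (there once outside the 100 bases shown) and once in the other 5. Among genes with a promoter, CCGGAAG stood in 54.2% of 24 genes higher in TCam-2, 33.3% of 21 lower and 34.8% of 23 that did not pass the test, and AAGATGGC in 37.5%, 23.8% and 26.1%. Every gene without a promoter was among those higher in TCam-2, so only the shares of the higher genes leave some genes out. The shares were not tested.

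The 78 mRNAs were of moderate level in both lines. Under vehicle the median gene stood at 50.5 CPM in NTera2 against 55.6 CPM in TCam-2, and the 10 most counted genes held 34.4% and 32.5% of all counts on the 78. Per kilobase of the listed gene length (CPM per kb, means of the vehicle libraries), MRPL51 was the highest of all in both lines, at 325 in NTera2 and 285 in TCam-2. MRPL51 (chromosome 12, 6491886 to 6493840) codes for a large subunit protein, and it was at 403, 478, 461 and 463 CPM in NTera2 vehicle replicates 1 to 4 and at 360, 380, 383 and 460 CPM in TCam-2. The large subunit genes next in order in NTera2 were MRPL37 (80.0), MRPL47 (76.8), MRPL3 (68.9) and MRPL15 (68.0), and in TCam-2 MRPL15 (85.0), MRPL9 (65.0), MRPL18 (63.5) and MRPL54 (61.2). Of the small subunit, MRPS34 (110), MRPS21 (104), MRPS26 (81.1), MRPS35 (58.9) and MRPS15 (48.2) led per kb in NTera2, and MRPS26 (84.8), MRPS21 (79.1), MRPS34 (64.1), MRPS7 (57.6) and MRPS16 (48.8) in TCam-2. MRPL51, MRPL15, MRPS34, MRPS21 and MRPS26 thus stood among the first 5 of their subunit in both lines, and these orders within a line carry no test.

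At the other end, MRPL53 had at most 12 counts in any of the 32 libraries and 101 in all, and it failed the filter on low counts in every comparison. MRPS24 had 4 to 60 counts per library. Both genes are listed inside a gene on the same strand, MRPL53 for 99.4% of its span within CCDC142 and MRPS24 for 100% within the readthrough gene URGCP-MRPS24. So are MRPS17 (100% within NIPSNAP2) with at least 126 counts in every library and MRPL30 (100%) with at least 330. MRPL12 (99.9%, at least 151 counts) and MRPS6 (99.5%, at least 225 counts) are nearly so. The part of such overlaps in the low counts was not tested. MRPL46 (1.71 per kb in both lines) and MRPL38 (2.9 in NTera2 and 3.02 in TCam-2) were the next lowest large subunit genes in NTera2, and MRPS28 (2.51) and MRPS22 (2.69) the next lowest small subunit genes there. MRPL46 (99.7%), MRPL38 (99.98%) and MRPS28 (99.9%) also lie nearly wholly within a gene on the same strand. For MRPS22 the largest such overlap was 5.98%. MRPS22 was not low in counts, at 44.2 CPM in NTera2 vehicle libraries, and its listed length was 16385 bases. In all, 22 of the 78 genes were overlapped by another listed gene on the same strand and 40 on the opposite strand, and 30 by none, some genes being overlapped on both strands. The strand setting of the counting is not given in the sources used here, so levels of overlapped genes are uncertain.

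Summed over its genes, each subunit stood at nearly the same level in both lines under vehicle, on the scaled CPM used here. The 49 large subunit genes summed to 3197, 3490, 3312 and 3508 CPM in NTera2 vehicle replicates 1 to 4 and to 3156, 3312, 3302 and 3823 CPM in TCam-2. The 29 small subunit genes summed to 1741, 1850, 1757 and 1852 CPM in NTera2 and to 1754, 1831, 1829 and 2071 CPM in TCam-2. Under vehicle the lines overlapped in both sums, and TCam-2 vehicle replicate 4 was the highest of the 32 libraries in each. As an unscaled share of counts, the 49 and 29 genes together took 0.546% ± 0.0131 (SD) in NTera2 vehicle libraries. In TCam-2 vehicle libraries the share was lower in the mean, 0.502% ± 0.0352, and the lines overlapped. The ratio of the large to the small sum was 1.88 ± 0.0265 (SD) in NTera2 vehicle and 1.81 ± 0.0212 in TCam-2 vehicle libraries, and it lay between 1.75 and 1.89 in all 32 libraries. With treatment, group means of the large sum ran from 3197 (OPG) to 3281 CPM (denosumab) in NTera2, below the vehicle mean of 3377 CPM. In TCam-2 they ran from 3302 (RANKL) to 3430 CPM (OPG), on both sides of the vehicle mean of 3398 CPM. The plot of summed levels by library shows these values together. Since a bulk library gives a share of RNA, less of these mRNAs per cell and fewer cells holding them cannot be told apart.

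**Figure D1:**
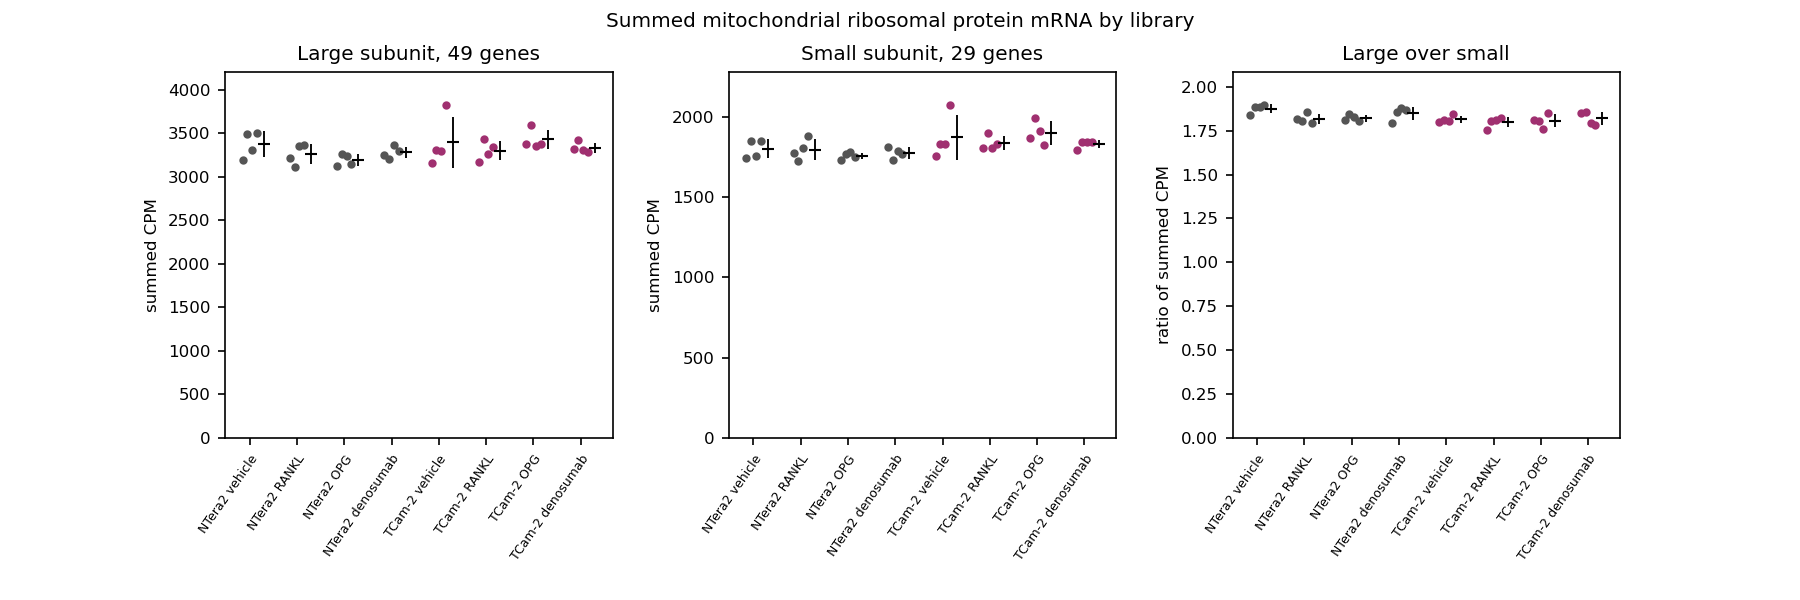
Summed CPM of the large subunit genes (left), of the small subunit genes (middle) and their ratio (right) by group, with 1 point per library in order of replicate number and the mean and SD of 4 libraries beside the points. On the scaled CPM, the sums of the lines overlap except under OPG, where both are higher in TCam-2. This direction depends on the scaling. As an unscaled share of counts under OPG, the 78 genes took 0.523% to 0.535% in NTera2 and less, 0.476% to 0.517%, in TCam-2. The ratio stays between 1.75 and 1.89, and TCam-2 vehicle replicate 4 lies above the other libraries in both sums.

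The lines were then compared gene by gene in the vehicle libraries. Most genes differed between TCam-2 and NTera2, in both directions and in both subunits, while the sums overlapped. Of the 77 genes tested with edgeR, 33 were higher and 21 lower in TCam-2 at an adjusted p under 0.05, beside 37.4% and 38.8% of all 16816 genes tested, and 23 did not pass. The share called was 70.1%, beside 76.2% of all genes. The large subunit had 20 higher, 13 lower and 15 not called of 48, and the small subunit 13 higher, 8 lower and 8 not called of 29. The median log2 fold change was 0.15 for the 77 genes, 0.14 for the large and 0.15 for the small subunit, against -0.01 for all genes tested. Differences were small beside those of other genes: the median size without regard to sign was 0.38 on the log2 scale, against 0.84 for all genes and 0.65 for the 6334 other genes of like level (between the 10th and 90th percentile of the levels of the 77). Of the called genes, 35 differed by more than 0.5 and 7 by more than 1 on the log2 scale, beside 64.5% and 43.8% of all genes. The 4 libraries of a line did not overlap those of the other in 49 of 77 genes (63.6%), against 70.0% of all genes tested, and 48 of the 49 were called, the exception being MRPL14 (0.19, SE 0.0896, edgeR adjusted p = 0.0707). With total counts alone as the scaling, the median of all genes moved from -0.01 to -0.17 and the split of the members from 33 higher and 21 lower to 25 higher and 27 lower, with their median at -0.01. Directions below are relative to the main scaling, and 42 of the called genes (25 higher and 17 lower) kept their call in all 16 settings tried, while no call turned.

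**Figure D2:**
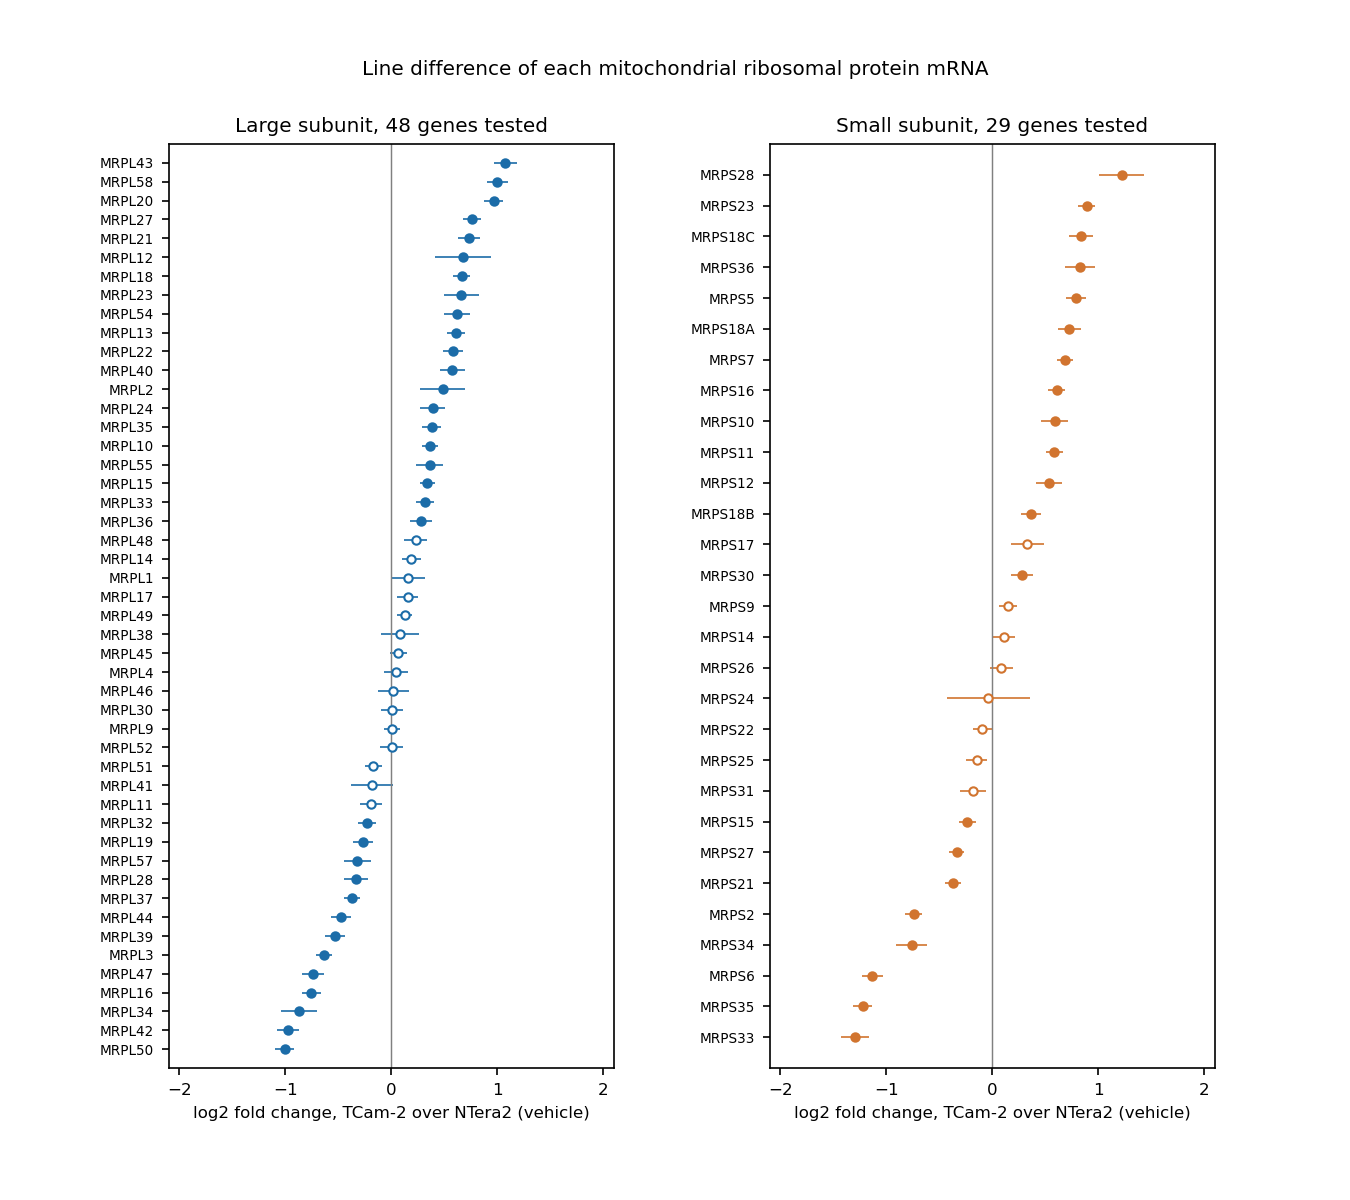
Log2 fold change of each tested gene, TCam-2 over NTera2 in vehicle libraries, with the standard error as a bar, for the large subunit (left) and the small subunit (right). Filled points passed an edgeR adjusted p under 0.05. The genes spread from -1.004 to 1.08 in the large and from -1.29 to 1.22 in the small subunit, on both sides of 0.

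Of the large subunit, the 6 genes with the largest increase in TCam-2 were MRPL43, MRPL58, MRPL20, MRPL27, MRPL21 and MRPL12. MRPL43 (ENSG00000055950, chromosome 10, 100969458 to 100987456) was at 26.6, 34.6, 29.5 and 31.3 CPM in NTera2 vehicle replicates 1 to 4 and at 63.8, 57.9, 58.4 and 73.8 CPM in TCam-2. All TCam-2 libraries stood well above all NTera2 libraries, 2.11-fold (log2 1.08, SE 0.105, edgeR adjusted p = 8.34e-08). MRPL43 is overlapped for 90.9% of its span by SEMA4G on the opposite strand, which was at 5.37 CPM in NTera2 against 8.63 CPM in TCam-2. MRPL58 (ICT1; ENSG00000167862, chromosome 17, 75012670 to 75020939), a peptidyl-tRNA hydrolase built into the large subunit that frees chains from stalled ribosomes, was at 26.2, 32.7, 29.0 and 28.8 CPM in NTera2 and at 51.8, 56.5, 60.0 and 62.2 CPM in TCam-2. The lines did not overlap, and TCam-2 was 2.001-fold higher (SE of log2 0.0982, edgeR adjusted p = 8.94e-08). MRPL20 (chromosome 1, 1401909 to 1407293) was at 127 ± 14.4 CPM in TCam-2 against 65.7 ± 4.44 CPM in NTera2 (log2 0.97, SE 0.09). MRPL27 (chromosome 17, 50367857 to 50373184) was at 98.7 ± 10.4 against 58.9 ± 2.45 CPM (log2 0.76, SE 0.0872), and MRPL21 (chromosome 11, 68891276 to 68903786) at 82.1 ± 9.83 against 50.2 ± 4.66 CPM (log2 0.73, SE 0.103). Each of the 3 had all TCam-2 libraries above all NTera2 libraries. The other 14 higher genes of this subunit lay between log2 0.28 (MRPL36) and 0.66 (MRPL18).

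The 6 large subunit genes with the largest decrease in TCam-2 were MRPL50, MRPL42, MRPL34, MRPL16, MRPL47 and MRPL3. MRPL50 (ENSG00000136897, chromosome 9, 101387633 to 101398618) was at 50.5, 49.2, 51.0 and 49.3 CPM in NTera2 vehicle replicates 1 to 4 and at 26.4, 23.4, 25.1 and 23.8 CPM in TCam-2. Its libraries lay close together within each line, and TCam-2 was 2.01-fold lower (log2 -1.004, SE 0.0898, edgeR adjusted p = 2.83e-08). MRPL42 (ENSG00000198015, chromosome 12, 93467514 to 93502864) was at 82.9, 72.8, 76.9 and 77.8 CPM in NTera2 and at 43.8, 29.2, 39.7 and 43.5 CPM in TCam-2. The groups were far apart, with TCam-2 replicate 2 the lowest library (log2 -0.97, SE 0.107, edgeR adjusted p = 3.49e-07). MRPL34 (chromosome 19, 17292609 to 17306782) was at 39.2, 55.7, 39.4 and 56.0 CPM in NTera2 and at 23.2, 29.1, 18.3 and 31.8 CPM in TCam-2. In both lines replicates 2 and 4 were its higher libraries, and the lines still did not overlap (log2 -0.87, SE 0.167, edgeR adjusted p = 0.000169). MRPL34 lies for 100% of its listed span within ABHD8 on the opposite strand (19.4 CPM in NTera2 against 11.2 CPM in TCam-2). MRPL16 (38.6 ± 2.62 CPM in TCam-2 and 66.0 ± 4.00 CPM in NTera2), MRPL47 (62 ± 8.13 and 105 ± 6.35 CPM) and MRPL3 (119 ± 6.92 and 187 ± 14.1 CPM) were lower by log2 fold changes of -0.76, -0.74 and -0.63. The other 7 lower genes lay between -0.54 (MRPL39) and -0.23 (MRPL32).

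Of the MRPS genes, MRPS28, MRPS23, MRPS18C, MRPS36, MRPS5 and MRPS18A had the largest increases in TCam-2. MRPS28 (ENSG00000147586, chromosome 8) was at 3.38, 3.797, 6.13 and 4.90 CPM in NTera2 vehicle replicates 1 to 4 and at 10.9, 13.1, 9.02 and 8.54 CPM in TCam-2. It was the lowest of the 6 in level, and TCam-2 was 2.33-fold higher without overlap (log2 1.22, SE 0.215, edgeR adjusted p = 7.16e-05). MRPS23 (ENSG00000181610, chromosome 17, 57834781 to 57850044) was at 76.1, 80.7, 79.8 and 82.4 CPM in NTera2 and at 130, 134, 153 and 166 CPM in TCam-2. All TCam-2 libraries were above all NTera2 libraries (log2 0.89, SE 0.0825, edgeR adjusted p = 4.47e-08). MRPS36, whose protein is now known as a subunit of the oxoglutarate dehydrogenase complex rather than of the ribosome, was at 13.4 ± 2.03 CPM in NTera2 against 23.5 ± 3.70 CPM in TCam-2 (log2 0.83, SE 0.144). MRPS5, a protein with bacterial counterparts, was at 65.4 ± 5.89 and 111 ± 13.8 CPM (log2 0.79, SE 0.0958). The other 7 higher genes lay between log2 0.28 (MRPS30) and 0.68 (MRPS7).

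MRPS33, MRPS35, MRPS6, MRPS34, MRPS2 and MRPS21 had the largest decreases of the small subunit, and MRPS33 had the largest decrease of the 77. MRPS33 (ENSG00000090263, chromosome 7, 141002610 to 141015228) was at 45.3, 44.5, 47.5 and 46.9 CPM in NTera2 vehicle replicates 1 to 4 and at 19.9, 12.4, 21.9 and 20.02 CPM in TCam-2. The NTera2 libraries were nearly alike, TCam-2 replicate 2 was the lowest, and TCam-2 was 2.45-fold lower (log2 -1.29, SE 0.131, edgeR adjusted p = 1.34e-07). MRPS35 (ENSG00000061794, chromosome 12, 27710822 to 27756295) was at 119, 113, 116 and 107 CPM in NTera2 and at 54.8, 48.2, 42.9 and 46.3 CPM in TCam-2. The groups were far apart, with TCam-2 2.34-fold lower (log2 -1.22, SE 0.0898), and its edgeR adjusted p of 2.25e-09 was the smallest of the 77 genes. MRPS6 (ENSG00000243927, chromosome 21, 34073224 to 34143034) was at 55.3, 48.6, 49.1 and 56.1 CPM in NTera2 and at 25.6, 23.4, 23.6 and 21.8 CPM in TCam-2. Its lines did not overlap either (log2 -1.13, SE 0.0977), though SLC5A3 on the same strand overlaps 46.8% of its span. MRPS34 (70.0 ± 16.4 CPM in TCam-2 and 120 ± 21.5 CPM in NTera2), MRPS2 (60.3 ± 3.74 and 102 ± 6.59 CPM) and MRPS21 (119 ± 11.9 and 155 ± 4.88 CPM) were lower by log2 fold changes of -0.76, -0.74 and -0.37. MRPS27 (-0.34) and MRPS15 (-0.24) made up the 8. The plot of levels in 32 libraries shows MRPL43, MRPL50, MRPL42, MRPS28, MRPS33 and MRPS35 with their lines apart under every treatment.

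**Figure D3:**
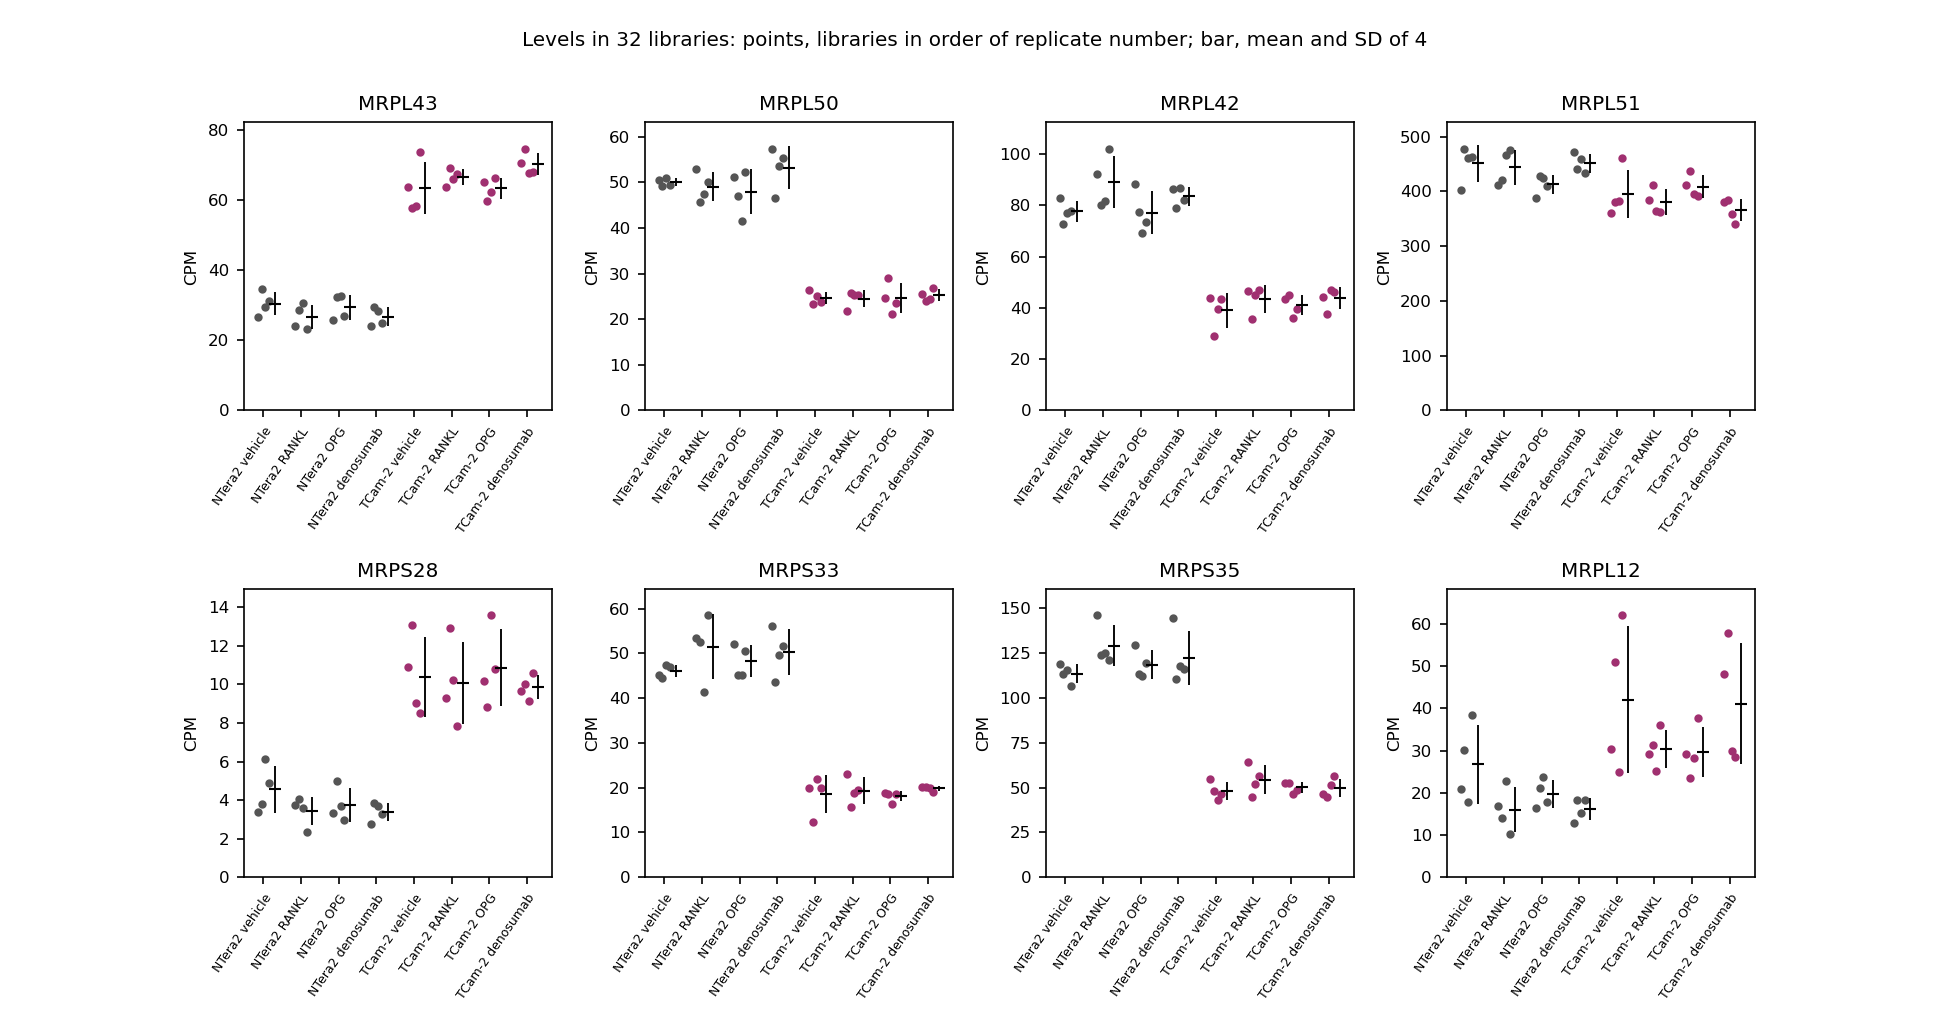
CPM of 8 genes by group, with 1 point per library in order of replicate number and the mean and SD of 4 libraries beside the points. MRPL43 and MRPS28 are higher and MRPL50, MRPL42, MRPS33 and MRPS35 lower in TCam-2 in all 4 treatments, the lines overlap in MRPL51 under vehicle and OPG, and MRPL12 spreads widely within groups.

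The 3 paralogs MRPS18A, MRPS18B and MRPS18C were all higher in TCam-2. Despite its name, the MRPS18A protein sits in the large subunit, and those of the other two sit in the small subunit. MRPS18C was at 22.4, 19.6, 23.2 and 24.6 CPM in NTera2 and at 35.6, 41.9, 37.0 and 43.6 CPM in TCam-2 (log2 0.84, SE 0.115, edgeR adjusted p = 4.85e-06). MRPS18A was at 33.4, 38.2, 36.4 and 36.2 CPM in NTera2 and at 47.8, 56.5, 63.0 and 67.9 CPM in TCam-2 (log2 0.73, SE 0.107, edgeR adjusted p = 1.16e-05). MRPS18B was at 55.1, 63.1, 65.3 and 59.9 CPM in NTera2 and at 68.3, 75.1, 79.4 and 86.4 CPM in TCam-2 (log2 0.36, SE 0.0917, edgeR adjusted p = 0.00179). No library of one line reached into the other in any of the 3. With total counts alone as the scaling, the MRPS18B difference was 0.20 and missed the threshold (edgeR adjusted p = 0.0507). ABRAXAS1 on the opposite strand overlaps 74.0% of MRPS18C.

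MRPL12, whose protein forms the flexible stalk of the large subunit that recruits translation factors, was called but rested on single libraries. It was at 20.9, 30.1, 17.8 and 38.4 CPM in NTera2 vehicle replicates 1 to 4 and at 30.4, 50.9, 24.9 and 62.1 CPM in TCam-2. In both lines replicates 2 and 4 were high and 1 and 3 low, and the lines overlapped (log2 0.67, SE 0.261, edgeR adjusted p = 0.0272). Without TCam-2 vehicle replicate 4 the difference was 0.39 (edgeR adjusted p = 0.191), and without NTera2 vehicle replicate 1 or 3 or TCam-2 vehicle replicate 2 the adjusted p was 0.0879, 0.0908 and 0.103. DESeq2 gave 0.125. Other genes shared this order of libraries: MRPL41, a large subunit gene, was at 31.3, 43.4, 26.5 and 45.0 CPM in NTera2 and 26.4, 38.4, 21.2 and 40.6 CPM in TCam-2, and MRPS34 at 104, 141, 100 and 137 CPM and 60.2, 73.4, 54.8 and 91.6 CPM. The cause of this order was not tested.

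Each gene was next read beside its neighbours on the chromosome, and most differed in the same direction as they did. For each gene, the median line difference of the other tested genes that start within 1 Mb was taken (at least 5 of them). Over the 76 genes with such neighbours, the gene and the median of its neighbours had Pearson's r = 0.65 and Spearman's rho = 0.67, and 58 of the 76 (76.3%) had the same sign. For 15566 other tested genes the same measures were r = 0.24, rho = 0.30 and 62.5%, and for the 6008 of like level r = 0.31, rho = 0.40 and 65.3%. These are descriptions across genes, which share libraries and, where they lie close, neighbours. Of the 53 called genes among the 76, 47 had the sign of their neighbours. The shares given for other genes cover called and uncalled genes alike, so they are no measure for this count. MRPL50 had 6 tested neighbours, all 6 of them lower in TCam-2, with a median of -2.08, and MRPS33 had 9 of 15 lower, with a median of -0.93. MRPS28 had 4 of 5 neighbours higher, with a median of 2.56, and MRPL12 had 46 of 64 higher, with a median of 0.83. MRPL58 and MRPL43 had neighbour medians of 0.56 and 0.58. Among the called exceptions, MRPL34 was lower (-0.87) beside a neighbour median of 0.01, MRPL16 (-0.76) beside 0.27, MRPL3 (-0.63) beside 0.03 and MRPS27 (-0.34) beside 0.53. MRPS11 was higher (0.58) beside -0.22, and MRPL24 (0.39) beside -0.09.

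**Figure D4:**
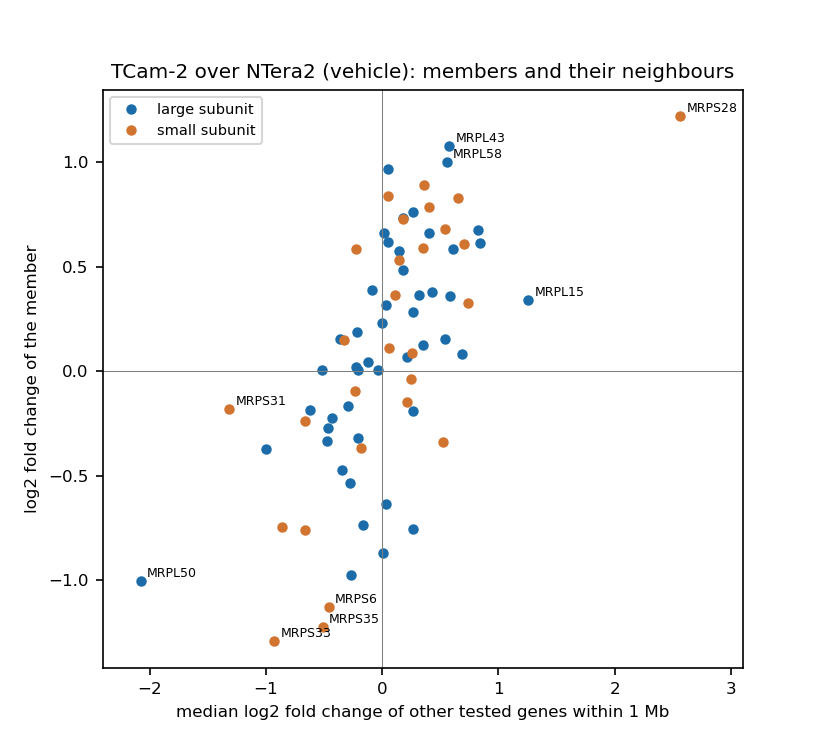
Log2 fold change of each gene, TCam-2 over NTera2 in vehicle libraries, against the median of the other tested genes that start within 1 Mb, for 76 genes. The points run from lower left (MRPL50) to upper right (MRPS28), and 58 of 76 lie in the quadrants where both have the same sign.

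By chromosome, 6 of 8 genes on chromosome 17 were higher in TCam-2 and the other two were not called, where 43.4% of the other 961 tested genes were higher and 33.7% lower. On chromosome 6, 5 of 6 were higher and the remaining one was not called (42.6% and 31.9% of the other genes), and on chromosome 8 all 3 were higher (56.0% and 24.7%). On chromosome 12, MRPS35 and MRPL42 were lower and MRPL51 was not called (-0.17), beside 37.9% of the other genes higher and 40.0% lower. On chromosome 21, both MRPS6 and MRPL39 were lower (29.1% and 48.9%). Chromosome 1 was mixed, with 3 higher and 3 lower of 8 (30.3% and 46.6%). So were chromosome 2 with 3 and 2 of 7 (36.1% and 38.5%) and chromosome 5 with 4 and 1 of 5 (56.8% and 21.7%). Chromosome 11 had 2 and 1 of 7 (40.3% and 38.2%), and chromosome 19 had 2 and 1 of 4 (35.8% and 33.9%). Called genes were only lower on chromosomes 3 (2 of 4, beside 28.7% and 46.7%), 7 (2 of 4, 25.7% and 51.7%) and 9 (2 of 3, 26.5% and 49.8%). The same held for chromosomes 13 (1 of 2, 25.1% and 52.5%) and 16 (2 of 2, 24.4% and 51.6%). They were only higher on chromosomes 4 (1 of 2, 41.3% and 35.6%), 10 (2 of 2, 51.3% and 26.0%), 15 (1 of 2, 38.5% and 34.9%) and 22 (1 of 1, 29.9% and 46.4%). None was called on chromosomes 14 and 20. The copy number of the lines was not measured here, and its part in these values was not tested.

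The genes around the ribosome differed in both directions too. Of 5 mitoribosomal proteins that carry other symbols, DAP3 (135 ± 6.16 CPM in NTera2 against 245 ± 10.5 CPM in TCam-2), AURKAIP1 (78.7 ± 9.10 and 126 ± 26.7 CPM) and CHCHD1 (40.0 ± 2.77 and 53.6 ± 5.89 CPM) were higher, and PTCD3 (-0.01) and GADD45GIP1 (0.14) were not called. Of 22 assembly and ribosomal RNA modification factors, 8 were higher and 9 lower, with a median of -0.16. MTG2, a GTPase of large subunit assembly, was at 38.5 ± 4.05 CPM in NTera2 against 80.3 ± 8.92 CPM in TCam-2 (log2 1.08), and DHX30, a helicase of ribosome assembly, at 253 ± 6.93 and 148 ± 10.1 CPM (log2 -0.75). Of 14 translation factors, 6 were higher and 5 lower, with a median of 0.14. GFM2, which helps to recycle the ribosome, was at 19.1 ± 2.29 CPM in NTera2 against 66.1 ± 12.8 CPM in TCam-2 (log2 1.80), and TUFM, the elongation factor that brings in the aminoacyl-tRNA, at 303 ± 17.0 and 172 ± 26.9 CPM (log2 -0.80). Of 17 mitochondrial aminoacyl-tRNA synthetases, 5 were higher and 6 lower, among them LARS2 at 163 ± 9.89 CPM in NTera2 against 78.7 ± 4.29 CPM in TCam-2.

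Of 10 genes for mitochondrial transcription and mRNA stability, 7 were higher in TCam-2 and POLRMT, LRPPRC and MTPAP were not called, with a median of 0.38. The 7 included TFAM, which packages and helps to transcribe mitochondrial DNA (47.9 ± 5.02 CPM in NTera2 against 70.8 ± 7.66 CPM in TCam-2), and SLIRP, which with LRPPRC steadies mitochondrial mRNAs (119 ± 6.51 and 216 ± 16.3 CPM). LRPPRC itself stood at a log2 difference of 0.10. Of the 13 mRNAs encoded in mitochondrial DNA, which the ribosome translates, 12 were lower in TCam-2 (median -0.73) and MT-ND1 was not called. As an unscaled share, they took 3.22% ± 0.164 of counts in NTera2 vehicle and 1.97% ± 0.203 in TCam-2 vehicle libraries. Of 10 regulators, 5 were higher and 2 lower. Among those with a motif counted above, NRF1 was at 32.04 ± 1.51 CPM in NTera2 against 37.8 ± 1.70 CPM in TCam-2 (log2 0.26, edgeR adjusted p = 0.0203), YY1 at 104 ± 1.86 and 116 ± 11.6 CPM (log2 0.17, edgeR adjusted p = 0.0466), and GABPA at 24.9 ± 2.09 and 24.8 ± 2.71 CPM (log2 0.01). For comparison, cytosolic ribosomal protein genes had 26 higher and 33 lower of 82 with a median of -0.04, and nuclear complex I subunits 18 higher and 10 lower of 37 with a median of 0.32.

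RANKL, OPG and denosumab were each compared with vehicle within a line, to ask whether blocking or adding RANKL moved these genes. The 3 comparisons of a line share its 4 vehicle libraries. In none of the 6 comparisons did edgeR call any of the 77 genes, beside 0.0% of all genes in each. DESeq2, run on the same counts, also called 0 of the 77 in each of the 6. At an unadjusted p under 0.05, edgeR counted 19 of 77 genes in NTera2 with RANKL (8 higher and 11 lower), beside 10.3% of all genes (3.9% higher and 6.4% lower). With OPG it counted 4, all lower, beside 1.68% (0.87% and 0.807%), and with denosumab 12 (1 higher and 11 lower), beside 7.25% (1.76% and 5.49%). In TCam-2 it counted 9 genes with RANKL, beside 8.92% (4.45% and 4.46%), 4 with OPG, beside 8.68% (3.74% and 4.94%), and 8 with denosumab, beside 6.56% (3.55% and 3.01%), all of them lower. These counts moved when single libraries were left out. DESeq2 counted 18, 4 and 12 in NTera2, beside 10.5%, 1.73% and 7.45% of all genes by DESeq2, and 9, 4 and 7 in TCam-2, beside 9.13%, 9.41% and 6.76%. The median log2 fold change of the 77 genes was -0.01 with RANKL, -0.04 with OPG and -0.01 with denosumab in NTera2, and -0.08, -0.02 and -0.09 in TCam-2, against medians of all genes between -0.01 and 0.01. The median standard error of a member was 0.0846 to 0.0852 in NTera2 and 0.0978 to 0.0983 in TCam-2. The plot of treatment differences shows both subunits gathered near 0.

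**Figure D5:**
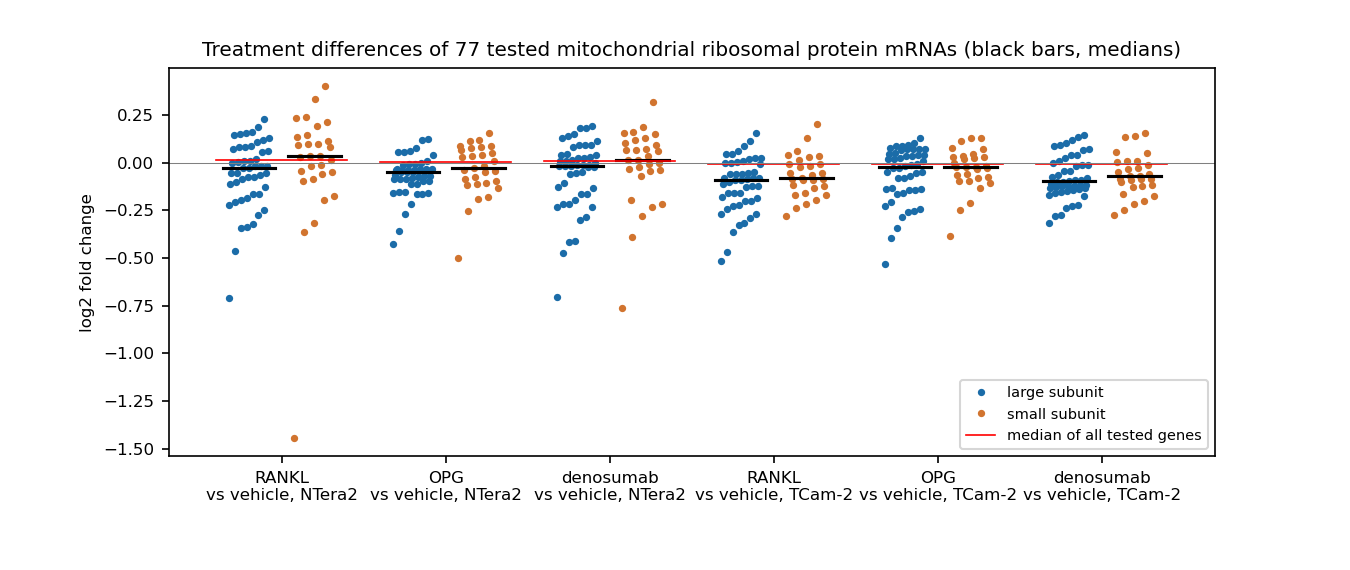
Log2 fold change of the 77 tested genes against vehicle for the 3 treatments in each line, large subunit in blue and small subunit in orange, with black bars at the medians and red lines at the median of all tested genes. The medians of the 77 genes lie between -0.09 and -0.01, and the lowest point (MRPS24 with RANKL in NTera2, -1.45) rests on few counts.

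Both subunits had medians near 0 under each treatment, and the difference between them was not tested. The medians of the large and small subunit were -0.03 and 0.04 with RANKL, -0.05 and -0.03 with OPG and -0.01 and 0.01 with denosumab in NTera2, and -0.09 and -0.08, -0.02 and -0.02, and -0.10 and -0.07 in TCam-2. In NTera2, 4 genes with RANKL had treated libraries that did not overlap the vehicle libraries (beside 3.92% of all genes), 3 with OPG (1.97%) and 5 with denosumab (3.5%). In TCam-2 the counts were 0 (2.83%), 0 (2.97%) and 4 (3.36%).

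In NTera2 with RANKL, the smallest p of the small subunit belonged to MRPS10 and MRPS24 and the smallest of the large subunit to MRPL4, MRPL12 and MRPL38, none of them called. The same choice of 2 small and 3 large subunit genes was made for each treatment. MRPS10 was at 24.5, 17.6, 18.9 and 24.2 CPM in vehicle replicates 1 to 4 and at 28.4, 25.4, 28.6 and 28.1 CPM with RANKL. The groups did not overlap, and RANKL was the higher in 4 of 4 replicate numbers (log2 0.40, SE 0.105, edgeR adjusted p = 0.368). In TCam-2 MRPS10 was at 31.5, 28.4, 32.1 and 34.5 CPM in vehicle and 34.2, 30.5, 33.0 and 36.0 CPM with RANKL, and the line by RANKL difference of its fold changes was -0.33 (SE 0.142, edgeR adjusted p = 0.941). MRPL12 was at 16.9, 14.02, 22.9 and 10.2 CPM with RANKL against the vehicle values above (log2 -0.71, SE 0.218, edgeR adjusted p = 0.368), and the groups overlapped. MRPL4 was at 78.7, 92.5, 79.9 and 92.9 CPM in vehicle and 63.0, 73.1, 80.3 and 62.6 CPM with RANKL (log2 -0.27, SE 0.0852, edgeR adjusted p = 0.368). MRPL38, the remaining one, was at 9.68 ± 2.22 and 6.91 ± 0.929 CPM, with overlap. With OPG the genes so chosen were MRPL54, MRPL11, MRPL46, MRPS34 and MRPS27, with log2 fold changes of -0.27, -0.17, -0.36, -0.19 and 0.12 (edgeR adjusted p = 1 for each).

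With denosumab in NTera2 they were MRPL34, MRPS34, MRPL12, MRPS31 and MRPL46. MRPL34 was at 27.9, 38.6, 36.4 and 37.7 CPM against 39.2, 55.7, 39.4 and 56.0 CPM in vehicle (log2 -0.41, SE 0.12, edgeR adjusted p = 0.4). The groups did not overlap, but the highest treated and the lowest vehicle library were close. MRPS34 was at 85.8, 104, 100 and 100 CPM against 104, 141, 100 and 137 CPM (log2 -0.28, SE 0.0877, edgeR adjusted p = 0.42), and MRPL12 at 12.8, 18.4, 15.2 and 18.2 CPM (log2 -0.70, SE 0.222, edgeR adjusted p = 0.42). In MRPL34, MRPS34 and MRPL12 alike, vehicle replicates 2 and 4 were the high libraries. MRPS31 was the one higher gene of the 5, at 25.1 ± 3.91 against 20.5 ± 1.69 CPM (log2 0.32, SE 0.116, edgeR adjusted p = 0.479). Without the filter on low counts, edgeR called MRPL34, MRPS34, MRPL4 and MRPS24 lower with RANKL in NTera2 (4 of 78 members, beside 0.483% of all genes) and MRPL34 and MRPS34 lower with denosumab (2 of 78, beside 0.65%). The block on replicate number was run only with the filter, where it called 0 in both, as did the fit without the block.

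In TCam-2 with RANKL they were MRPL55, MRPL24, MRPL2, MRPS26 and MRPS34, with log2 fold changes of -0.36, -0.31, -0.47, -0.22 and -0.28 (edgeR adjusted p = 0.557 for each). MRPL55 was at 56.1, 67.9, 52.8 and 81.0 CPM in vehicle and 43.3, 61.8, 48.9 and 53.2 CPM with RANKL, lower in 4 of 4 replicate numbers but with overlap. Without the libraries of low RNA integrity (RANKL replicates 2 and 4), edgeR again called 0 members, with 18 at an unadjusted p under 0.05, beside 14.6% of all genes in that fit, and a median of -0.13, beside -0.01 for all genes. With OPG they were MRPS17, MRPS25, MRPL52, MRPL41 and MRPL55, with log2 fold changes of -0.38, -0.21, -0.24, -0.39 and -0.26 (edgeR adjusted p between 0.536 and 0.581). With denosumab, MRPL14 led, at 51.1, 53.1, 49.6 and 58.1 CPM in vehicle and 45.7, 43.2, 45.3 and 41.7 CPM with denosumab. The groups did not overlap (log2 -0.32, SE 0.0834, edgeR adjusted p = 0.731), and MRPS25, MRPL54, MRPL48 and MRPS5 followed, from -0.28 to -0.20. Without the filter on low counts, edgeR called MRPL12 lower with RANKL (1 of 78, beside 0.144% of all genes) and with OPG (1 of 78, beside 0.152%) in TCam-2.

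No gene of the 77 was called for a treatment effect that differed between the lines. The line by RANKL, line by OPG and line by denosumab terms called 0 of 77 with edgeR, beside 0.0% of all 19216 genes in each, and DESeq2 called 0 as well. At an unadjusted p under 0.05, edgeR counted 5, 1 and 5, beside 5.22%, 5.2% and 4.78% of all genes, and DESeq2 5, 4 and 7, beside 6.06%, 6.67% and 5.43% by DESeq2. MRPL14 had the smallest p in the denosumab term, at -0.29 (SE 0.109, edgeR adjusted p = 0.95), and MRPS25 in the OPG term, at -0.26 (SE 0.123, edgeR adjusted p = 0.953).

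Among libraries of a group, these genes had a median spread a little below that of other genes of like level. The median SD of log2 CPM within groups (with 0.5 CPM added) was 0.128 for the 77 genes, 0.13 for the large and 0.124 for the small subunit, and 0.142 for 6051 other genes of like level. MRPS16 (0.0522), MRPL15 (0.0580), MRPS23 (0.0720) and MRPL49 (0.0780) varied least. MRPS16, a small subunit protein with a bacterial counterpart, was at 87.3, 86.8, 93.4 and 94.9 CPM under vehicle in NTera2 and 133, 148.9, 132 and 131 CPM in TCam-2. MRPS24 (0.504), MRPL12 (0.406), MRPL41 (0.328) and MRPL38 (0.284) varied most. Across the 16 libraries of a line, the large and small sums moved together, with r = 0.84 in NTera2 and 0.93 in TCam-2, while the median correlation of any pair of the 77 genes was only 0.11 and 0.15. Both describe libraries that share treatments, passages and depth. Of genes outside the 78, DDAH2 (0.88), RABEPK (0.87) and TMSB10 (0.86) followed the large sum most closely in NTera2, and TRMT112 (0.94), CLTA (0.93) and PDAP1 (0.92) in TCam-2. For the small sum they were RPL27A (0.88), GADD45A (0.84) and NUDCD3 (0.83) in NTera2 and UROD (0.91), LINC02387 (0.91) and DNAJC11 (0.91) in TCam-2, each r over 16 libraries and out of 14628 genes, with no gene shared between the lines.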

How the data were processed

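Polyadenylated RNA of 32 libraries was sequenced with a stranded kit as paired 52-bp reads, per the labels' protocols. Per the submitters' processing notes, the authors used bcl2fastq 2.20.0, STAR 2.7.9a and featureCounts 1.6.2 with GRCh38/hg38. The annotation release and the strand setting are not given in the sources used here. The deposited values were raw counts of reads per gene, and the deposited table also gave each gene's length, start and end, which are other numbers than counts. All library columns were matched to a sample, and 0 were left over.

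The counts were fitted with the robust quasi-likelihood test of edgeR 4.0.16 (R 4.3.3) after filterByExpr and TMM scaling, with Benjamini-Hochberg adjustment over all genes tested and calls at an adjusted p under 0.05. The standard error (SE) is that of the log2 fold change. CPM used TMM factors over all libraries. The line comparison used the 8 vehicle libraries, treatments the 16 libraries of a line and interactions all 32. DESeq2 1.42.0, other scalings and filters, a block on replicate number and leaving out each library were alternatives. The fits were also run on simulated counts with known changes. Those counts were drawn without any passage effect, so the runs do not speak to such effects.

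The members, lists and naming rule were chosen with earlier results of these data known. Named were the 6 most raised and 6 most lowered called genes of each subunit between the lines, the 3 MRPL and 2 MRPS genes of smallest p in each other comparison, the extremes of level and of spread, the MRPS18 paralogs, MRPL12 and members of low counts. MRPL41 and MRPS34 were set beside MRPL12, and single chromosomes and neighbourhoods named, after their values were seen. Replicate numbers stand for passages within a line in the labels, which is where the pairing comes from. Same-numbered libraries of different treatments had a median correlation of their deviations from group means of 0.0875 in NTera2 and 0.0773 in TCam-2, against -0.0436 and -0.0245 for other pairs. Across the lines they share only a number. Precision is limited by 4 libraries a group.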

Additional observations from a re-analysis of the deposited data

Results flagged for a closer look

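Of 76 groups of 4 libraries examined for a library far from the other 3, 4 had one, and chance alone flags about 1 in 20 groups. The summed large subunit level of TCam-2 OPG replicate 2 was 3600 CPM, above 3359 to 3381 CPM in the other 3. The summed small subunit level of TCam-2 denosumab replicate 1 was 1795 CPM, below 1843 to 1845 CPM in the others. The ratio of the large to the small sum in NTera2 vehicle replicate 1 was 1.84, below 1.89 in the others. MRPL21 in the same library was at 43.2 CPM, below 52.0 to 53.4 CPM in the others, and all TCam-2 vehicle libraries lay above all 4. That library has no RNA integrity number in the labels.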

How the results depend on the processing

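The count of genes called between the lines (54) stayed between 52 and 59 under the other scalings, filters and fits, and between 49 and 54 when 1 library was left out. Of the 22 members overlapped on the same strand, 21 were tested, and without them 26 were higher and 15 lower of 56 (an alternative added after seeing the data). With the replicate block, 34 were higher and 23 lower between the lines, where numbers pair nothing, and 0 members were called in all 6 treatment and 3 interaction comparisons, so the block changed no other call. Leaving out any 1 library also left 0 called in each of those 9. Without the filter on low counts the calls were 4 with RANKL and 2 with denosumab in NTera2 and 1 each with RANKL and OPG in TCam-2, all lower, and the cause was not tested. Counts at an unadjusted p under 0.05 moved when 1 library was left out. Beside the share of all genes in the same fit, they ran in NTera2 with RANKL from 12 (8.45% without RANKL replicate 1, 7.73% without replicate 4) to 25 (13.9% without RANKL replicate 3). With OPG they ran from 0 (0.886% without OPG replicate 1) to 10 (3.96% without vehicle replicate 1), and with denosumab from 5 (3.63% without denosumab replicate 1, 4.13% without vehicle replicate 4) to 23 (10.6% without denosumab replicate 2). In TCam-2 they ran with RANKL from 0 (4.17% without vehicle replicate 4) to 20 (15.9%), with OPG from 1 (9.59% without OPG replicate 1, 5.85% without vehicle replicate 2) to 9 (12.1%) and with denosumab from 4 (3.16% without denosumab replicate 4, 3.94% without vehicle replicate 2) to 15 (13.2%), each highest without vehicle replicate 1. The line difference of MRPS24 (-0.04, not called) turned to 0.038 with the replicate block and ran from -0.27 to 0.29 with 1 library left out, being 0.08 without NTera2 vehicle replicate 2, 0.29 without NTera2 vehicle replicate 4 and 0.16 without TCam-2 vehicle replicate 3, with 4 to 60 counts per library. MRPL12 was 0.64 with DESeq2 (adjusted p = 0.125), 0.51 with total counts alone (edgeR adjusted p = 0.087) and 0.61 without a filter (edgeR adjusted p = 0.278).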
